A study of Homo sapiens with 12 samples.

Results

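Collagen genes were followed in human keratinocytes after knockdown of ATF3, APOE or CXCL14. The set holds the 42 protein-coding genes of the count table whose symbol has the form of a collagen chain, a type number followed by a chain number, without COL7A1 and COL17A1. It is 42 of 44 collagen genes and of 19951 protein-coding genes in the table. COL7A1, the chain of the anchoring fibrils, and COL17A1, the transmembrane collagen of hemidesmosomes, were left out because they build the anchoring complex that keratinocytes are known for.

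The cells were N/TERT-2G, an immortalised line of human skin keratinocytes, grown in serum-free keratinocyte medium. At 40 to 50% confluency they received 100 pmol of siRNA per well of a 6-well plate with 5 μl per well of a lipid transfection reagent, and the medium was replaced after 6 h. All 4 groups thus share the line, the reagent and the amount of siRNA. They differ in the siRNA: negative control, ATF3 (a transcription factor of the ATF/CREB family), APOE (the apolipoprotein that carries lipids) or CXCL14 (an epithelial chemokine), with 3 libraries each and 12 in all. Messenger RNA was selected with poly-T beads and sequenced in bulk. The siRNA sequences and the time to RNA extraction were not given in the sources used here. Nor was it given whether replicates were separate cultures, so p-values measure only the spread between libraries, which may be technical. A bulk level cannot tell fewer expressing cells from less RNA per cell.

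Total counts ran from 16225691 to 22246755 per library, so that a floor of 3 counts stood for 0.136 to 0.191 CPM, counts scaled to a fixed library size, counting error only. The labels held for ATF3 and APOE, and CXCL14 was lower with its own siRNA at few counts. ATF3 had a mean of 42.2 CPM with control siRNA and 12.02 CPM with ATF3 siRNA. APOE had 46, 59 and 51 counts in the control libraries and 2, 5 and 3 with APOE siRNA, and CXCL14 had 7, 6 and 11 counts against 1, 1 and 0 with its own siRNA. The CXCL14 call there (adjusted p = 0.0143) was lost without control replicate 3 (0.0523) or CXCL14 replicate 3 (0.0579). It was also lost with limma-voom (0.0538) and limma on log2(FPKM + 1) (0.317), in a range of 2.13e-06 to 0.317 over the alternatives. Control replicates 1 and 2 were at 0.42 and 0.36 CPM for CXCL14, below the expression filter's limit of 0.567 CPM. This call is therefore a description only. CXCL14 was higher with APOE siRNA, at 234, 78 and 142 counts. With CXCL14 siRNA, ATF3 was 1.62-fold higher than in the control (adjusted p = 4.96e-07) and APOE 1.85-fold higher (adjusted p = 0.00144). All 9 keratinocyte markers were tested and their summed level was 18548 CPM or more in every library. Of the lists for other cell types, 6 of 13 fibroblast, 4 of 6 smooth muscle and pericyte, 3 of 7 melanocyte, 2 of 7 endothelial and 1 of 8 immune markers were tested, and their sums are given beside the fibrillar genes.

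Collagens are trimers of chains wound into a triple helix. Fibrillar collagens form the cross-striated fibrils of connective tissue, and the FACIT collagens (fibril-associated, with interrupted helices) sit on or between such fibrils. Type IV chains form the sheet-like network of basement membranes, on which basal keratinocytes rest. Type VIII forms hexagonal lattices, type VI beaded filaments, and the multiplexins are proteoglycan-like collagens of basement membrane zones. The dermal fibroblast is the main source of skin fibrils, while keratinocytes add basement membrane chains.

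Several collagen genes lie next to each other, and the most abundant type IV chains of these cells are divergent neighbours. COL4A1 (chromosome 13, 110148963 to 110307233, minus strand, hg38) and COL4A2 (110305812 to 110513209, plus strand) lie head to head, and their GENCODE models overlap by 1422 bases. Their RefSeq starts have 126 bases between them. COL4A5 (chromosome X, 108439844 to 108697545, plus strand) and COL4A6 (108155607 to 108439497, minus strand) lie head to head with a gap of 346 bases. COL4A3 and COL4A4 form the same arrangement with a gap of 111 bases, but stayed below the filter on low counts. COL3A1 and COL5A2 lie tail to tail with 19149 bases between them. Between the RefSeq starts of COL4A5 and COL4A6 lie 379 bases. Only parts of the DNA between the starts of these pairs are shown, which both partners share. They are a stretch of 121 bases for COL4A5 and COL4A6 and windows of 30 bases cut around a motif match for COL4A1 and COL4A2. The promoter window of COL4A6 holds a further CCAAT match outside the stretch shown. The sequences are RefSeq, GRCh38.p14, on the plus strand, and capitals mark CCAAT or its reverse complement ATTGG, or the GC box GGGCGG.
COL4A5 and COL4A6, chrX:108439588-108439708, the stretch common to both promoter windows: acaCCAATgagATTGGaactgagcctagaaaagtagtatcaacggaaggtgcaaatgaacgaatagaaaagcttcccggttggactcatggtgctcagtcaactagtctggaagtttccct
COL4A1 and COL4A2, chr13:110307167-110307196: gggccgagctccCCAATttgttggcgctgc
COL4A1 and COL4A2, chr13:110307207-110307236: ccggcggtgcgcGGGCGGcgcctcaaaggg

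Promoter windows of 250 bases before to 50 after the start were matched by symbol for 30 of the 42 genes, in 42 windows. The tested genes COL1A1, COL2A1, COL5A2, COL6A1, COL8A1, COL9A3 and COL22A1 were not matched, so the motif counts do not cover them. Motifs were searched on both strands, and 35116 RefSeq promoters of the same length gave the comparison. TGACTCA (reverse TGAGTCA), the AP-1 site, was in 0 of the 42 windows and in 4.95% of all promoters. TGACGT (reverse ACGTCA), the core of the cyclic AMP response element that ATF proteins can bind, was in 0 of the 42 windows and in 7.98% of all promoters. GGGCGG (reverse CCGCCC) was in 23 windows of 20 genes and in 45% of all promoters. CCAAT (reverse ATTGG) was in 13 windows of 11 genes, COL4A1, COL4A2, COL4A5 and COL4A6 among them, and in 34.6% of all promoters. TATAAA (reverse TTTATA) was in 6 windows of 5 genes and in 11.5% of all promoters. A window without a motif only lacks those letters there.

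Of the 42 genes, 20 passed the filter and 22 did not. The untested genes had 238 counts together over the 12 libraries, against 311892 for the tested ones. COL6A2, COL6A5 and COL9A1 had 0 counts in every library, 13 others had 1 to 10 counts in total, and 6 had more, with at most 12 counts in a library. COL1A2, the partner chain of COL1A1 in type I collagen, had 9 counts in all, 8 of them with CXCL14 siRNA. COL3A1, the chain of type III collagen, had 7 counts, all with CXCL14 siRNA. Transcripts of the chains that dominate dermal fibrils were therefore at or near the counting floor, with COL1A1 as the exception. None of the 3 transmembrane collagens and neither COL26A1 nor COL28A1 passed the filter. COL22A1 reached the filter's limit of 0.567 CPM in every group but CXCL14 siRNA, COL6A1 and COL2A1 in every group but the control. COL11A2 reached it only with APOE and CXCL14 siRNA, and COL8A2 only with ATF3 siRNA, so their place among the tested genes rests on those groups.

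Type IV chains and COL16A1 led the collagen transcripts. In control cells the mean FPKM (reads per kilobase of gene, scaled to the size of the library) was 22.0 ± 0.78 (SD, n = 3) for COL4A2, 19.3 ± 1.20 for COL16A1, 16.2 ± 0.40 for COL4A1, 12.3 ± 1.15 for COL4A6 and 11.7 ± 0.25 for COL4A5. COL4A6 and COL4A5 did not differ beyond their spread. COL9A2 followed at 7.66, COL12A1 at 5.70 and COL27A1 at 4.80 FPKM. COL1A1, COL5A1, COL9A3 and COL5A2 lay between 2.49 and 2.898 FPKM, within each other's spread, and COL8A1 was at 1.82. The remaining 7 tested genes were below 0.70 FPKM. COL17A1 at 520.3 and COL7A1 at 74.5 FPKM stood above every gene of the set. The deposited length counts all exons of a gene. With the length of the longest coding transcript instead, COL4A2 was at 65.4, COL4A1 at 36.0 and COL16A1 at 31.2 FPKM, so COL16A1 fell below COL4A1. COL4A5 at 21.4 then stood above COL4A6 at 16.9 FPKM, and COL27A1 at 8.62 above COL12A1 at 6.07. COL9A3 at 4.96 stood above COL1A1 at 4.23 and COL5A1 at 3.64, and COL8A1 at 3.01 above COL5A2 at 2.62.

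**Figure D1:**
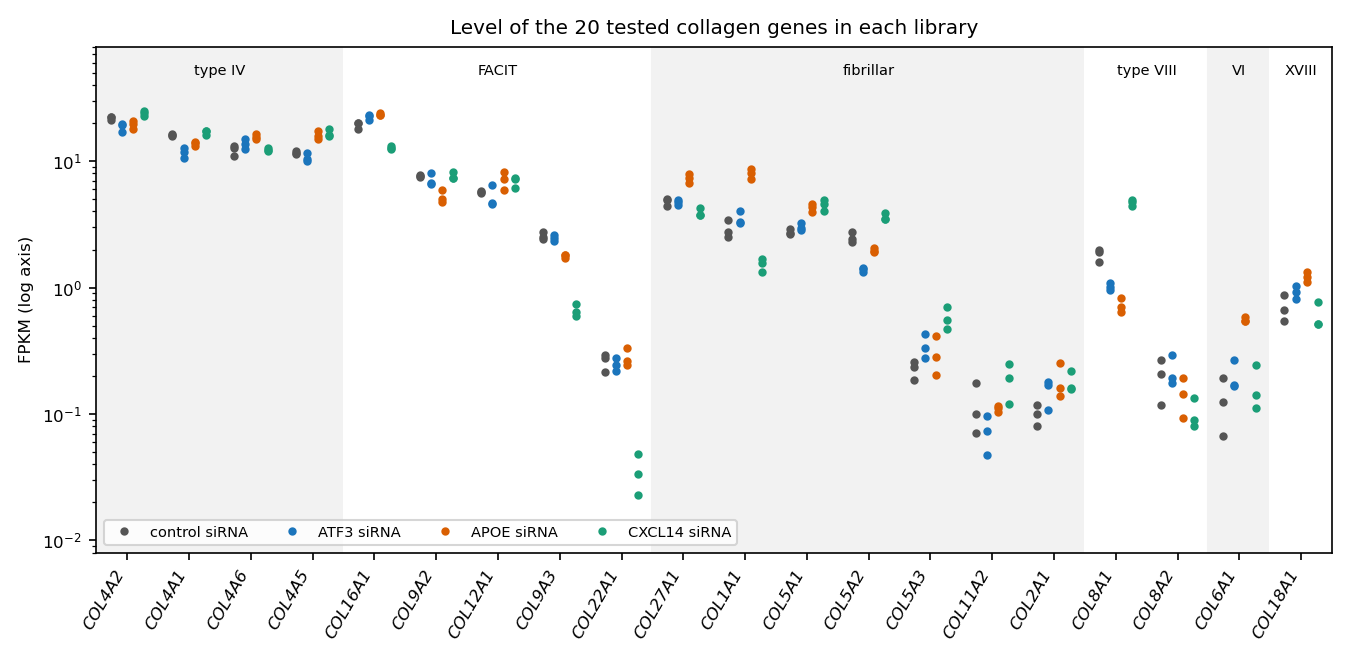
FPKM (log axis) of the 20 tested collagen genes, 1 point per library, coloured by siRNA and grouped by collagen family (shaded bands, within each in order of the control mean). Type IV chains and COL16A1 lie above 10 FPKM, and COL8A1, COL9A3, COL22A1 and COL6A1 show groups that stand apart.

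The summed level of the 42 genes moved little, and its makeup moved more. The sum was 114 ± 3.67 FPKM (SD, n = 3) in control cells, 107.9 ± 6.21 with ATF3 siRNA, 127.5 ± 1.88 with APOE siRNA and 118 ± 1.29 with CXCL14 siRNA. The APOE range of 125.6 to 129.3 and the CXCL14 range of 116.8 to 119.4 did not overlap the control range of 109.8 to 116.3. As a share of all FPKM the set held 0.0435 to 0.0459% in control libraries and 0.0383 to 0.0419% with ATF3 siRNA. This share was 0.0438 to 0.0472% with APOE siRNA and 0.0458 to 0.0488% with CXCL14 siRNA, and both ranges overlapped the control. On this scale the mean was highest with CXCL14 siRNA. An exact permutation test of 3 against 3 libraries cannot go below p = 0.1, so no test is given for these sums and shares. Type IV chains held 54.6% of the summed FPKM in control cells, 50.7% with ATF3 siRNA, 50.8% with APOE siRNA and 59.1% with CXCL14 siRNA. Fibrillar chains held 11.8, 12.3, 17.4 and 12.4% in the same order. The FACIT share was 31.1% in control cells, 34.7% with ATF3 siRNA, 29.65% with APOE siRNA and 23.8% with CXCL14 siRNA. Type VIII and X chains held 1.78, 1.15, 0.70 and 4.08%. The fibrillar shares with ATF3 and CXCL14 siRNA and the FACIT share with APOE siRNA overlapped the control range, and the other shares of these 4 families did not. The size of a family's share depends on the gene length used. The deposited length was 2.97 times the longest coding transcript for COL4A2 and 2.23 times for COL4A1. For COL16A1 it was 1.62 times and for COL12A1 1.06 times that transcript.

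Against the control, COL16A1 rose and COL8A1, COL5A2, COL4A1 and COL4A2 fell with ATF3 siRNA. With the quasi-likelihood test of edgeR at an adjusted p under 0.05, 1 of the 20 tested genes was higher and 4 were lower, where 11.2% of all 14920 tested genes were higher and 9.14% lower. With APOE siRNA 10 were higher and 5 lower, against 22.3% higher and 22.5% lower of all genes. With CXCL14 siRNA 6 were higher and 5 lower, against 27.4% and 28.4% of all genes. The counts for CXCL14 siRNA lie near the share over all genes, as do the 5 calls with ATF3 siRNA together, and are no result about collagen genes as a set. Over the 15 genes that reached the filter's limit in every group, a count chosen after seeing the data, 1 was higher and 4 lower with ATF3 siRNA, 8 higher and 5 lower with APOE siRNA, and 5 higher and 4 lower with CXCL14 siRNA. The median log2 fold change of the 20 genes was −0.03, 0.32 and 0.09 for ATF3, APOE and CXCL14 siRNA, and 0.00, 0.01 and 0.01 over all tested genes. The median size of the change was 0.23, 0.46 and 0.57, against 0.19, 0.30 and 0.39 over all genes. The 3 comparisons share their control libraries. COL16A1, COL5A2 and COL8A1 were called in all 3 of them, and COL11A2 and COL8A2 in none. With library size alone as the scaling, all called genes for ATF3 siRNA moved from 1678 higher and 1363 lower to 1361 and 1734. The split of the collagen genes did not move there. For APOE siRNA all genes moved from 3327 and 3354 to 2753 and 3909, and the collagen genes from 10 and 5 to 8 and 6. For CXCL14 siRNA all genes moved from 4087 and 4240 to 4747 and 3769, and the collagen genes from 6 and 5 to 8 and 5. Leaving out a library gave 8 to 10 collagen genes higher and 4 to 6 lower with APOE siRNA. The call of the single gene higher with ATF3 siRNA depended on the fit: 0 to 3 genes were called when a library was left out, 0 without control replicate 1 or without ATF3 replicate 3, and 3 without control replicate 3.

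**Figure D2:**
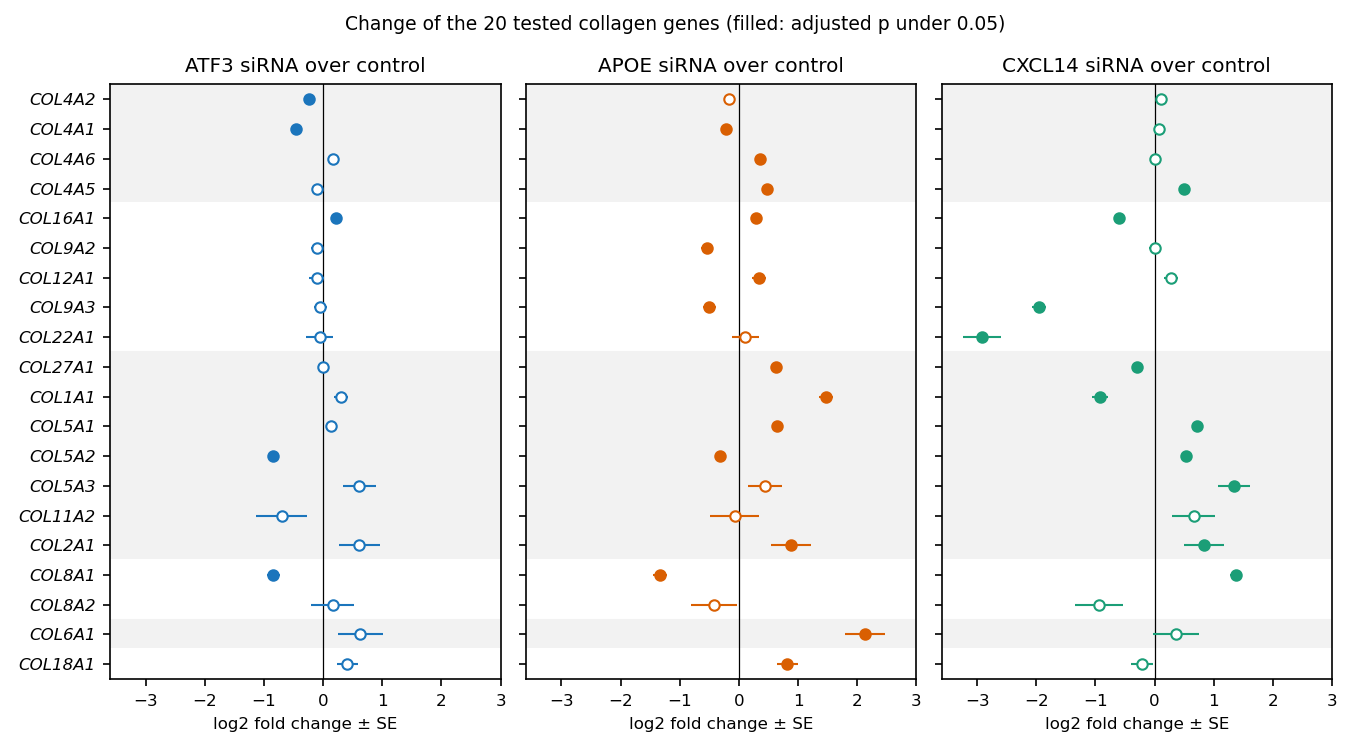
Log2 fold change over control siRNA with its standard error for the 20 tested collagen genes, filled where the adjusted p of edgeR was under 0.05, in the same family bands and order of genes. COL1A1 lies at 1.48 with APOE siRNA and at −0.92 with CXCL14 siRNA, and COL8A1 lies at −1.33 and 1.37.

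Among the fibrillar genes COL1A1 and COL27A1 rose with APOE siRNA and fell with CXCL14 siRNA. Of 11 fibrillar genes 7 were tested. Against the control, 0 rose and 1 fell with ATF3 siRNA, 4 rose and 1 fell with APOE siRNA, and 4 rose and 2 fell with CXCL14 siRNA. Both counts of 4 include COL2A1, which did not reach the filter's limit in the control and whose calls are a description only. The shares of all genes higher and lower were 11.2% and 9.14% with ATF3 siRNA, 22.3% and 22.5% for APOE siRNA, and 27.4% and 28.4% for CXCL14 siRNA. COL1A1 (chromosome 17, 50183289 to 50201632, minus strand), the main chain of type I collagen, was at 25.0, 27.5 and 34.0 CPM in control cells, 32.4, 33.3 and 40.7 with ATF3 siRNA, 87.1, 73.4 and 80.7 with APOE siRNA and, with CXCL14 siRNA, 13.3, 16.8 and 15.6. The APOE libraries were the highest and the CXCL14 libraries the lowest, without overlap with any other group. COL1A1 rose 2.79-fold with APOE siRNA (log2 fold change 1.48 ± 0.12 SE, adjusted p = 5.53e-08) and fell by 0.92 ± 0.13 with CXCL14 siRNA (adjusted p = 1.16e-05). With ATF3 siRNA its log2 fold change was 0.30 ± 0.12 (adjusted p = 0.0935). Here 3 of 22 alternatives made the call, in a range of 0.0241 to 0.33, with the lowest value without control replicate 3.

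The type V chains join type I fibrils and limit their width. Against the control they had calls of opposite sign only with APOE siRNA, and the difference between chains was not tested. COL5A1 (chromosome 9, 134641774 to 134844843, plus strand) was at 30.5, 29.8 and 33.4 CPM in control cells, 32.4, 33.6 and 37.1 with ATF3 siRNA, 45, 49.99 and 52.3 with APOE siRNA and, with CXCL14 siRNA, 45.9, 56.3 and 51.7. It rose by a log2 of 0.65 ± 0.09 with APOE siRNA (adjusted p = 2.04e-05) and of 0.72 ± 0.09 with CXCL14 siRNA (adjusted p = 4.06e-06), and both groups lay above all control and ATF3 libraries. COL5A2 (chromosome 2, 189031896 to 189225312, minus strand) was at 20.7, 17.3 and 18.5 CPM in control cells, 10.04, 10.9 and 10.6 with ATF3 siRNA, 15.7, 15 and 14.5 with APOE siRNA and, with CXCL14 siRNA, 29.2, 26.6 and 26.1. The 4 groups of COL5A2 did not overlap. COL5A2 fell by 0.84 ± 0.09 with ATF3 siRNA (adjusted p = 1.5e-05) and by 0.32 ± 0.09 with APOE siRNA (adjusted p = 0.01), and rose by 0.54 ± 0.09 with CXCL14 siRNA (adjusted p = 8.06e-05). The APOE call was lost without control replicate 1, with an adjusted p of 0.0593, the highest of its alternatives, which ran from 0.00487. The FPKM ratio of COL5A1 to COL5A2 was 0.98 to 1.21 in control libraries, 2.05 to 2.34 with ATF3 siRNA, 1.91 to 2.40 with APOE siRNA and 1.05 to 1.41 with CXCL14 siRNA. The higher ratios with ATF3 siRNA go with a lower COL5A2, and those with APOE siRNA with a higher COL5A1 and a lower COL5A2.

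COL5A3, another type V chain, was at 1.75, 1.28 and 1.61 CPM in control cells, 1.89, 2.31 and 2.96 with ATF3 siRNA, 2.85, 1.97 and 1.40 with APOE siRNA and, with CXCL14 siRNA, 3.80, 4.80 and 3.21. It rose by a log2 of 1.34 ± 0.27 with CXCL14 siRNA (adjusted p = 0.000456), where all libraries lay above the other 9. COL27A1, a fibrillar collagen known from cartilage, was at 69.9, 70.8 and 63.3 CPM in control cells, 70.7, 63.8 and 67.6 with ATF3 siRNA, 105.4, 113.4 and 96.5 with APOE siRNA and, with CXCL14 siRNA, 52.9, 60.9 and 52.8. It rose by 0.63 ± 0.08 with APOE siRNA (adjusted p = 8.18e-06) and fell by 0.29 ± 0.08 with CXCL14 siRNA (adjusted p = 0.00517), and only the control and ATF3 libraries overlapped. COL2A1, the chain of cartilage fibrils, had 9 to 13 counts per control library and 13 to 27 in the others. It did not reach the filter's limit in the control, so its calls are a description only. It was called higher with APOE siRNA (log2 0.88 ± 0.34, adjusted p = 0.0469) and CXCL14 siRNA (0.83 ± 0.34, adjusted p = 0.0476). These calls were lost in 17 and 15 of 21 alternatives, with adjusted p-values from 0.0355 to 0.222 and from 0.0305 to 0.161, among them 10 of the 12 fits that left out a library in each case. COL11A2, a minor chain of cartilage fibrils, had 7 to 32 counts per library and was not called against the control, with a log2 fold change of 0.66 ± 0.37 (adjusted p = 0.146) with CXCL14 siRNA.

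Genes on the marker lists of other cell types also differed between these libraries, all from the N/TERT-2G keratinocyte line. The summed level of 13 fibroblast markers, 6 of them tested, was 69.5 to 79.7 CPM in control libraries, 63.4 to 69.4 with ATF3 siRNA, 91.9 to 97.7 with APOE siRNA and 115.6 to 130.5 with CXCL14 siRNA. MFAP5, FAP, FBN1 and TWIST2 made up most of it. DPT and POSTN were at 0 counts, PRRX1 had at most 1 count, THY1 at most 2, LUM at most 3, PDGFRA at most 4 and DCN at most 16 counts in a library. MFAP5 reached 968, FBN1 944 and FAP 668 counts. The smooth muscle and pericyte list summed to 76.05 to 90.9 CPM in control libraries, 171.7 to 254.5 with ATF3 siRNA, 278.7 to 304.6 with APOE siRNA and 55.02 to 67.6 with CXCL14 siRNA. Nearly all of it was NOTCH3, a receptor at 46.9 to 297 CPM, and DES was at 0 counts. The melanocyte list summed to 3.38 to 4.20 CPM in control libraries and 6.60 to 6.76 with CXCL14 siRNA, against 3.37 to 3.99 with ATF3 and 3.07 to 3.96 with APOE siRNA, and TYR was at 0. The immune list, mainly CD14 with up to 108 counts in a library, summed to 2.18 to 3.41 CPM in control libraries, 3.13 to 5.26 with ATF3 siRNA, 6.01 to 6.44 with APOE siRNA and 1.25 to 1.58 with CXCL14 siRNA. PTPRC, CD3E, LYZ and MS4A1 of that list were at 0. The endothelial list stayed between 1.28 and 3.43 CPM. The part of these markers in the collagen changes was not tested. The 9 keratinocyte markers, led by KRT5 and KRT14, summed to 25383 to 28628 CPM in control libraries, 28958 to 31480 with ATF3 siRNA, 36819 to 39235 with APOE siRNA and 18548 to 19290 with CXCL14 siRNA, and their part was not tested either.

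**Figure D3:**
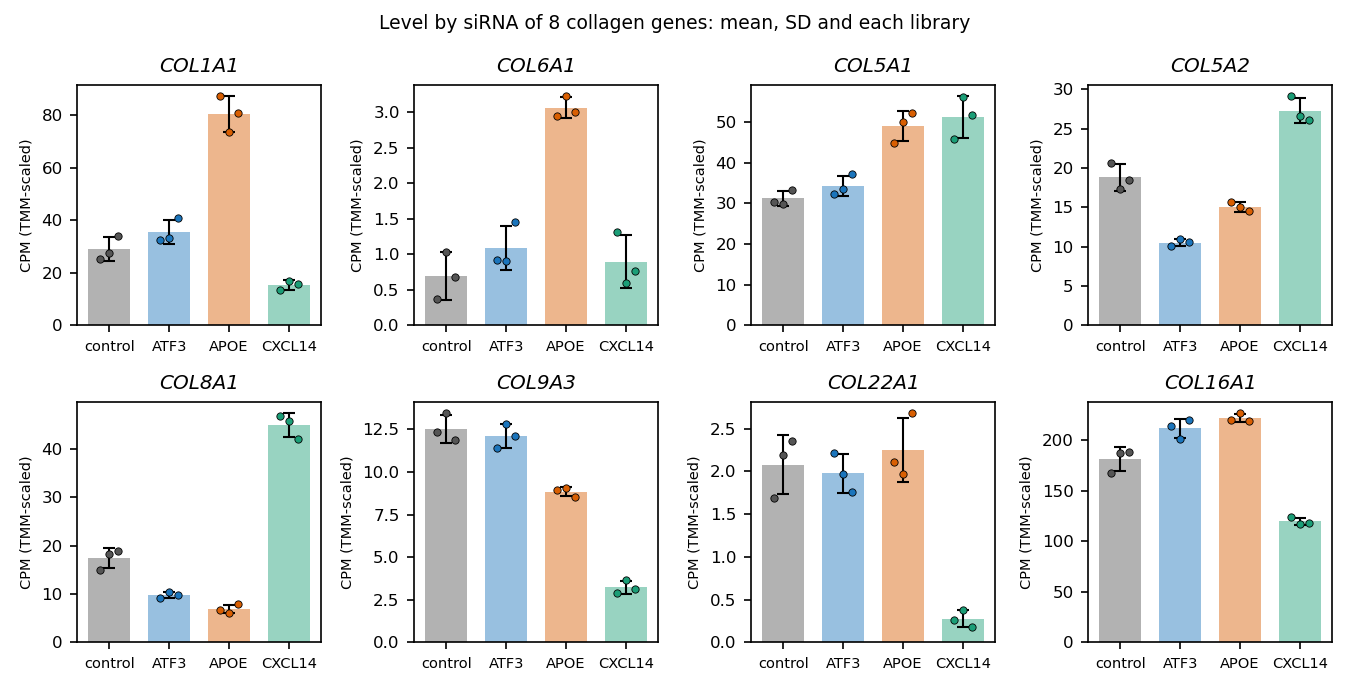
TMM-scaled CPM of 8 collagen genes by siRNA (linear axes from 0), with bars for the mean of 3 libraries, error bars for the SD and points for libraries. COL1A1 and COL6A1 are highest with APOE siRNA, COL8A1 and COL5A2 with CXCL14 siRNA, and COL9A3 and COL22A1 are lowest with CXCL14 siRNA.

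COL8A1, the type VIII chain known from vessel wall and Descemet's membrane, changed in the direction opposite to COL1A1 with APOE and CXCL14 siRNA. COL8A1 (chromosome 3, 99638475 to 99799226, plus strand) was at 15.1, 18.2 and 18.9 CPM in control cells, 9.12, 10.4 and 9.74 with ATF3 siRNA, 6.70, 6.13 and 7.91 with APOE siRNA and, with CXCL14 siRNA, 46.8, 45.8 and 42.1. The 4 groups did not overlap. It fell by a log2 of 0.84 ± 0.11 with ATF3 siRNA (adjusted p = 7.33e-05) and by 1.33 ± 0.12 with APOE siRNA (adjusted p = 1.57e-07), and rose 2.58-fold with CXCL14 siRNA (1.37 ± 0.10, adjusted p = 1.05e-08). The FPKM ratio of COL1A1 to COL8A1 was 1.45 to 1.72 in control libraries, 3.08 to 4.01 with ATF3 siRNA, 9.77 to 12.5 with APOE siRNA and 0.27 to 0.36 with CXCL14 siRNA. This ratio was not among those planned and only restates the changes of both genes. COL8A2, the other type VIII chain, had 7 to 23 counts per library. Its log2 fold change was −0.94 ± 0.40 with CXCL14 siRNA (adjusted p = 0.06), and no control comparison called it. COL10A1, the chain of hypertrophic cartilage in the same family, had 0 to 3 counts per library.

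The type IV pairs of the basement membrane network changed by smaller amounts, and the chains of a divergent pair did not always share a call, although the difference between chains was not tested. Of 6 genes 4 were tested; 0 rose and 2 fell with ATF3 siRNA, 2 rose and 1 fell with APOE siRNA, and 1 rose and 0 fell with CXCL14 siRNA. Over all genes 11.2% were higher and 9.14% lower with ATF3 siRNA, 22.3% higher and 22.5% lower after APOE knockdown, and 27.4% higher and 28.4% lower after CXCL14 knockdown. COL4A1 was at 241.9, 246.3 and 236.2 CPM in control cells, 191.3, 159.4 and 177.1 with ATF3 siRNA, 196.8, 214.4 and 209.5 with APOE siRNA and, with CXCL14 siRNA, 239, 260.9 and 258. All ATF3 libraries lay below all others. COL4A1 fell by a log2 of 0.46 ± 0.07 with ATF3 siRNA (adjusted p = 0.000247) and by 0.22 ± 0.07 with APOE siRNA (adjusted p = 0.0151). The APOE call was lost without control replicate 2 (adjusted p = 0.0556) or APOE replicate 1 (0.0717), in a range of 0.00191 to 0.0717 over the alternatives.

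COL4A2, its obligate partner in the most widespread type IV trimer, was at 411.4, 437.9 and 441.3 CPM in control cells, 383.5, 333.1 and 377.9 with ATF3 siRNA, 352.9, 387 and 407.6 with APOE siRNA and, with CXCL14 siRNA, 441.2, 483.8 and 471.6. It fell by a log2 of 0.24 ± 0.07 with ATF3 siRNA (adjusted p = 0.0272), without overlap with the control. That call was lost without control replicate 2 (adjusted p = 0.092), control replicate 3 (0.0539) or ATF3 replicate 2 (0.124), in a range of 0.00492 to 0.124. With APOE siRNA COL4A2 was at −0.17 ± 0.07 (adjusted p = 0.0642), and 12 of 22 alternatives called it. The FPKM ratio of COL4A1 to COL4A2 was 0.70 to 0.77 in control libraries, 0.61 to 0.65 with ATF3 siRNA, 0.67 to 0.73 with APOE siRNA and 0.71 to 0.72 with CXCL14 siRNA. With transcript lengths the means of this ratio were 0.55, 0.47, 0.53 and 0.53 in the same order.

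COL4A5, a chain that joins COL4A6 in the trimers of epidermal basement membrane, was at 137, 139.8 and 144.2 CPM in control cells, 126.5, 122.5 and 140.5 with ATF3 siRNA, 211, 193.6 and 181.6 with APOE siRNA and, with CXCL14 siRNA, 213.7, 192.7 and 190.9. The APOE and CXCL14 libraries lay above all others. COL4A5 rose by a log2 of 0.48 ± 0.07 with APOE siRNA (adjusted p = 5.64e-05) and of 0.50 ± 0.07 with CXCL14 siRNA (adjusted p = 1.98e-05). COL4A6 was at 103.4, 118.6 and 125.3 CPM in control cells, 129.5, 118 and 140.6 with ATF3 siRNA, 154.2, 141.9 and 147.1 with APOE siRNA and, with CXCL14 siRNA, 118.2, 113.2 and 114.7. It rose by 0.35 ± 0.08 with APOE siRNA (adjusted p = 0.00156), while its log2 fold change with CXCL14 siRNA was −0.00 ± 0.08 (adjusted p = 0.965). The FPKM ratio of COL4A5 to COL4A6 was 0.90 to 1.04 in control libraries, 0.76 to 0.81 with ATF3 siRNA, 0.97 to 1.07 with APOE siRNA and 1.30 to 1.41 with CXCL14 siRNA. The ATF3 and CXCL14 ratios lay outside the control range on either side. COL4A3 and COL4A4, the chains of kidney and lung membranes, had at most 12 counts in a library.

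**Figure D4:**
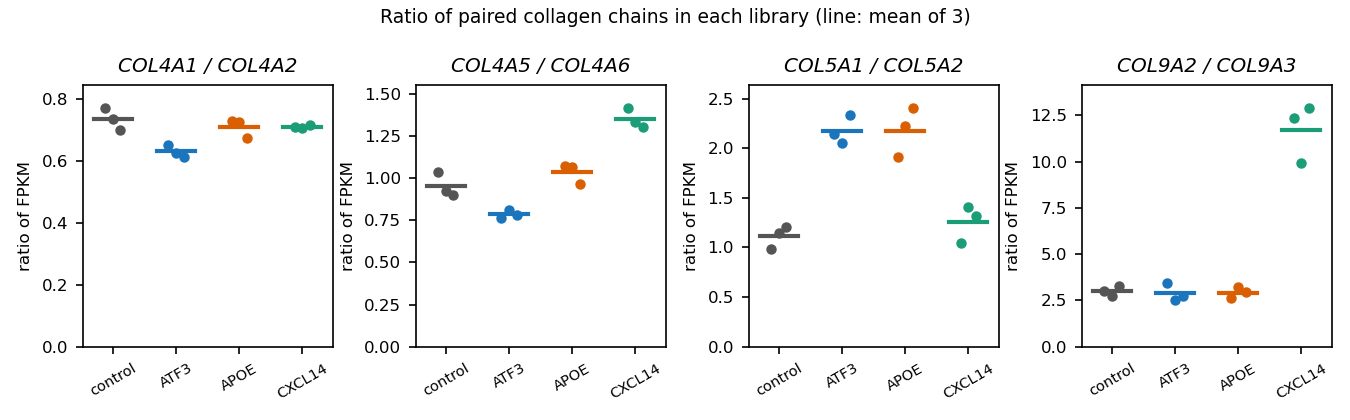
Ratio of the FPKM of paired collagen chains in each library (axes from 0), with lines for the mean of 3 libraries. COL5A1 to COL5A2 is highest with ATF3 and APOE siRNA, and COL4A5 to COL4A6 and COL9A2 to COL9A3 are highest with CXCL14 siRNA.

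COL9A3 and COL16A1 of the FACIT family fell with CXCL14 siRNA. Of 10 genes 5 were tested. Among them 1 rose and 0 fell with ATF3 siRNA, 2 rose and 2 fell with APOE siRNA, and 0 rose and 3 fell with CXCL14 siRNA. The 3 falls include COL22A1, which did not reach the filter's limit with CXCL14 siRNA, so its call is a description only. Beside these counts stand 11.2% higher and 9.14% lower of all genes for ATF3 siRNA, 22.3% and 22.5% for APOE siRNA, and 27.4% and 28.4% for CXCL14 siRNA, and the difference between families was not tested. COL9A3 (chromosome 20, 62816244 to 62841159, plus strand), a type IX chain, was at 12.3, 13.4 and 11.8 CPM in control cells, 11.4, 12.8 and 12.1 with ATF3 siRNA, 8.92, 9.03 and 8.55 with APOE siRNA and, with CXCL14 siRNA, 2.9, 3.65 and 3.12. Control and ATF3 libraries overlapped, and the other groups lay below them and apart. COL9A3 fell by a log2 of 1.96 ± 0.12 with CXCL14 siRNA (adjusted p = 1.24e-09) and by 0.50 ± 0.11 with APOE siRNA (adjusted p = 0.00134). Its exons overlap those of TCFL5 on the opposite strand by 45 bases, and as the strand setting of the counting was not given, reads there are uncertain.

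COL9A2, another type IX chain, was at 32.2, 32.4 and 33.7 CPM in control cells, 34.4, 28.3 and 28.8 with ATF3 siRNA, 20.3, 25.4 and 21.8 with APOE siRNA and, with CXCL14 siRNA, 31.3, 31.6 and 35.0. It fell by a log2 of 0.54 ± 0.10 with APOE siRNA (adjusted p = 0.000287), and its log2 fold change with CXCL14 siRNA was −0.00 ± 0.09 (adjusted p = 0.975). The FPKM ratio of COL9A2 to COL9A3, also not among those planned, was 2.76 to 3.26 in control libraries and 2.53 to 3.46 with ATF3 siRNA. It was 2.61 to 3.23 with APOE siRNA and 9.94 to 12.9 with CXCL14 siRNA. COL9A1, needed for the heterotrimer of type IX, had 0 counts. COL22A1, a FACIT collagen of tissue junctions, had 28, 36 and 38 counts in control cells, 48, 35 and 29 with ATF3 siRNA, 40, 36 and 42 with APOE siRNA and, with CXCL14 siRNA, 5, 7 and 4. It fell by a log2 of 2.91 ± 0.32 with CXCL14 siRNA (adjusted p = 9.74e-07), with the 9 other libraries overlapping each other. COL22A1 did not reach the filter's limit with CXCL14 siRNA, so this call is a description only.

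COL16A1 (chromosome 1, 31652247 to 31704319, minus strand), a FACIT collagen of the skin's basement membrane zone, was at 167.8, 187.6 and 188.3 CPM in control cells, 214.4, 201.2 and 219.8 with ATF3 siRNA, 220.1, 226.8 and 219 with APOE siRNA and, with CXCL14 siRNA, 124, 116.9 and 118.5. The CXCL14 libraries were the lowest and the ATF3 and APOE libraries lay above the control. It fell by a log2 of 0.60 ± 0.06 with CXCL14 siRNA (adjusted p = 5.88e-07), and rose by 0.29 ± 0.06 with APOE siRNA (adjusted p = 0.00115) and 0.22 ± 0.06 with ATF3 siRNA (adjusted p = 0.0179). The ATF3 call was lost without control replicate 1 (adjusted p = 0.0951) or ATF3 replicate 3 (0.0561), in a range of 0.00702 to 0.0951. COL12A1, a FACIT collagen of dense connective tissue, was at 71.5, 73.9 and 70.8 CPM in control cells, 81.6, 59.5 and 58.3 with ATF3 siRNA, 91.6, 105 and 76.4 with APOE siRNA and, with CXCL14 siRNA, 93.1, 92.3 and 78.0. It was called with APOE siRNA (0.34 ± 0.12, adjusted p = 0.0367) and not with CXCL14 siRNA (0.28 ± 0.12, adjusted p = 0.0628). The APOE call was lost without any 1 of the 3 control libraries (0.0845, 0.0691 and 0.0998) and without APOE replicate 1 (0.0737) or 2 (0.221), in a range of 0.000978 to 0.221. For CXCL14 siRNA, 8 of 22 alternatives made the call, in a range of 0.00475 to 0.165.

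COL6A1 and COL18A1 rose with APOE siRNA among the remaining families. COL6A1 (chromosome 21, 45981737 to 46005050, plus strand), a chain of beaded filaments, had 6, 17 and 11 counts in control cells, 20, 16 and 24 with ATF3 siRNA, 56, 59 and 47 with APOE siRNA and, with CXCL14 siRNA, 25, 11 and 17. The APOE libraries had the highest levels of all, and the other groups overlapped. COL6A1 rose 4.39-fold with APOE siRNA (log2 fold change 2.13 ± 0.34, adjusted p = 8.84e-05). COL6A1 did not reach the filter's limit in the control, so its call is a description only. COL6A2, its partner in the type VI trimer and its neighbour at 93046 bases, had 0 counts in all libraries, and COL6A3 had 0 to 11. COL18A1, a multiplexin of basement membranes and the source of endostatin, was at 4.72, 5.72 and 7.56 CPM in control cells, 7.05, 7.99 and 8.89 with ATF3 siRNA, 10.5, 9.64 and 11.7 with APOE siRNA and, with CXCL14 siRNA, 6.64, 4.47 and 4.43. It rose by 0.82 ± 0.18 with APOE siRNA (adjusted p = 0.00155), where all libraries lay above the other 9. COL18A1 shares 1401 exon bases with SLC19A1 on the opposite strand, 16.4% of its length, and SLC19A1 had 10077 counts against 1600 for COL18A1, so its level is uncertain.

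The knockdowns were also compared with each other. APOE siRNA against CXCL14 siRNA gave 8 collagen genes higher and 6 lower of 20, where 28.9% of all genes were higher and 26.6% lower. COL22A1 was 8.12-fold higher with APOE siRNA than with CXCL14 siRNA (log2 3.02 ± 0.31, adjusted p = 5.11e-07). As COL22A1 did not reach the filter's limit with CXCL14 siRNA, that call is a description only. COL1A1 was 5.27-fold higher (2.40 ± 0.12, adjusted p = 1.32e-10), COL6A1 3.41-fold higher (1.77 ± 0.32, adjusted p = 0.000164) and COL9A3 2.74-fold higher (1.46 ± 0.12, adjusted p = 4.73e-08). COL8A1 was 6.51-fold lower (−2.70 ± 0.11, adjusted p = 1.56e-11), and COL5A3, COL5A2, COL9A2, COL4A1 and COL4A2 were lower by 0.28 to 0.90 on the log2 scale. COL18A1, COL27A1, COL16A1 and COL4A6 were also called higher, by 0.36 to 1.03. COL5A1 and COL4A5, which rose against the control with both siRNAs, had log2 differences of −0.06 ± 0.09 (adjusted p = 0.554) and −0.03 ± 0.07 (adjusted p = 0.782) here. With library size alone the median of all genes shifted by −0.12 and the split of all called genes moved from 4308 higher and 3974 lower to 3379 and 5148, while the 8 and 6 collagen calls kept their number.

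ATF3 siRNA against APOE siRNA gave 3 collagen genes higher and 8 lower, where 20.3% of all genes were higher and 17.9% lower. COL8A1, COL9A3 and COL9A2 were higher with ATF3 siRNA, by 0.50 ± 0.12, 0.45 ± 0.11 and 0.44 ± 0.10. COL6A1 was lower by 1.5 ± 0.31 (adjusted p = 0.00111) and COL1A1 by 1.18 ± 0.11 (adjusted p = 6.7e-07). COL27A1, COL4A5, COL5A2, COL5A1, COL12A1 and COL4A1 were lower by 0.23 to 0.64. The COL4A1 call (adjusted p = 0.0137) was lost without ATF3 replicate 2 (0.0775) or APOE replicate 2 (0.0653), in a range of 0.00362 to 0.0775. The COL12A1 call (adjusted p = 0.00871) was lost without the same libraries (0.0514 and 0.0678), in a range of 8.88e-07 to 0.0678, and its groups overlapped.

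ATF3 siRNA against CXCL14 siRNA gave 7 collagen genes higher and 9 lower, where 28.4% of all genes were higher and 25.3% lower. COL22A1 was higher with ATF3 siRNA by a log2 of 2.85 ± 0.32 (adjusted p = 1.25e-06), COL9A3 by 1.91 ± 0.12 (adjusted p = 1.68e-09) and COL1A1 by 1.22 ± 0.12 (adjusted p = 4.56e-07). COL8A1 was lower by 2.21 ± 0.11 (adjusted p = 1.02e-10) and COL5A2 by 1.38 ± 0.09 (adjusted p = 3.5e-09). COL11A2 was lower by 1.36 ± 0.40 (adjusted p = 0.00859) and COL8A2 higher by 1.09 ± 0.39 (adjusted p = 0.0272), the only comparison that called either. COL11A2 reached the filter only with APOE and CXCL14 siRNA, COL8A2 only with ATF3 siRNA and COL22A1 not with CXCL14 siRNA, so these 3 entered through a group where they were high and their calls are a description only. Over the 15 genes at the limit in every group, 5 were higher and 8 lower. The COL8A2 call was lost without ATF3 replicate 3 (0.115) or CXCL14 replicate 1 (0.0785) or 2 (0.0903), in a range of 0.0234 to 0.115. The COL5A3 call (adjusted p = 0.0207) was lost without ATF3 replicate 1 (0.0884) or 2 (0.057) or CXCL14 replicate 2 (0.103), in a range of 0.006 to 0.103, and the COL12A1 call (adjusted p = 0.0128) without ATF3 replicate 2 (0.0705) or 3 (0.062), in a range of 7.73e-06 to 0.0705. With library size alone the split of all called genes moved from 4239 higher and 3769 lower to 3477 and 4897, and that of the collagen genes from 7 and 9 to 6 and 9, where COL27A1 lost its call (adjusted p = 0.0833, in a range of 0.0014 to 0.0833).

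The collagen genes were read beside 91 genes that modify, fold, cut, bind or break down collagen, of which 75 were tested. Of these 23 rose and 8 fell with ATF3 siRNA, which is 30.7% and 10.7% of the 75, against 11.2% and 9.14% of all genes. With APOE siRNA 21 rose and 21 fell, 28% each against 22.3% and 22.5% of all genes, and with CXCL14 siRNA 26 rose and 21 fell, 34.7% and 28% against 27.4% and 28.4%. The counts for APOE siRNA and of falls lie near the share over all genes. Their median log2 fold changes were 0.10, 0.05 and 0.06. For ATF3 siRNA the number of falls was 3 without control replicate 1, 4 without control replicate 2 and 5 without ATF3 replicate 2 or 3, and the number of rises was 15 without control replicate 2.

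Of 13 tested enzymes that hydroxylate and glycosylate collagen chains, 7 rose and 0 fell with ATF3 siRNA, where 11.2% of all genes rose and 9.14% fell. The list had 5 rises and 2 falls after APOE knockdown (22.3% and 22.5% of all genes), and 6 and 2 after CXCL14 knockdown (27.4% and 28.4%). P3H2, a prolyl 3-hydroxylase of type IV collagen, went from 27.6 to 42.9 CPM with ATF3 siRNA (log2 0.64 ± 0.12, adjusted p = 0.00162) and to 57.5 CPM with CXCL14 siRNA (1.06 ± 0.12, adjusted p = 1.48e-06). With CXCL14 siRNA P3H4, a partner of lysyl hydroxylation, rose by 1.46 ± 0.13 (adjusted p = 5.65e-08), while PLOD2, a lysyl hydroxylase, fell by 0.93 ± 0.07 (adjusted p = 9.2e-09). P4HA2, a catalytic subunit of prolyl 4-hydroxylase, fell by 0.79 ± 0.07 (adjusted p = 8.06e-08) there. With APOE siRNA P3H4 rose by 0.80 ± 0.13, P3H3 by 0.54 ± 0.11 and the lysyl hydroxylase PLOD1 by 0.41 ± 0.07. P3H1, another prolyl 3-hydroxylase, fell by 0.27 ± 0.08 with APOE siRNA (adjusted p = 0.0114), a call lost without APOE replicate 1 (0.0611), in a range of 0.00228 to 0.0611. With ATF3 siRNA P4HB, the beta subunit of prolyl 4-hydroxylase, rose by 0.32 ± 0.08 and PLOD1 by 0.27 ± 0.07.

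Of 15 tested genes for folding and export, 3 rose and 2 fell with ATF3 siRNA, 1 rose and 4 fell with APOE siRNA, and 4 rose and 5 fell with CXCL14 siRNA. These counts lie near the shares of all genes for ATF3 siRNA (11.2% and 9.14%) and CXCL14 siRNA (27.4% and 28.4%), and for falls with APOE siRNA (22.5%, with 22.3% higher). SERPINH1, the collagen chaperone HSP47, went from 390.3 CPM in control cells to 656.7 with CXCL14 siRNA (log2 0.75 ± 0.08, adjusted p = 6.3e-07). SEC24D, of the vesicle coat that carries procollagen, fell from 75.7 to 31.1 CPM with APOE siRNA (−1.29 ± 0.07, adjusted p = 9.32e-10). SEC23A of the same coat fell by 0.40 ± 0.07 with APOE siRNA and by 0.83 ± 0.07 with CXCL14 siRNA. TMEM38B, an ion channel of the endoplasmic reticulum, fell by 1.83 ± 0.10 and MIA2, a cargo receptor, by 1.12 ± 0.11 with CXCL14 siRNA. PPIB, a proline isomerase, rose by 0.46 ± 0.07 with ATF3 siRNA.

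Of 11 tested genes for propeptide cleavage and cross-linking, 2 rose and 2 fell with ATF3 siRNA, 2 rose and 3 fell with APOE siRNA, and 4 rose and 2 fell with CXCL14 siRNA. The list is short, and the shares of all genes beside it are 11.2% and 9.14%, 22.3% and 22.5%, and 27.4% and 28.4%. TLL1, a procollagen C-proteinase, fell by 0.64 ± 0.09 with ATF3 siRNA and by 1.65 ± 0.10 with CXCL14 siRNA, and rose by 0.52 ± 0.09 with APOE siRNA. TGM2, a transglutaminase, rose by 1.68 ± 0.17 with ATF3 siRNA and 1.51 ± 0.17 with CXCL14 siRNA. TGM2 fell by 0.58 ± 0.20 with APOE siRNA (adjusted p = 0.0282), a call lost without control replicate 2 (0.103) or 3 (0.106) or APOE replicate 3 (0.119), in a range of 0.00565 to 0.119. The lysyl oxidases LOXL2 and LOXL1 were called in different comparisons, LOXL2 lower by 1.12 ± 0.16 with APOE siRNA and LOXL1 higher by 1.66 ± 0.23 with CXCL14 siRNA. BMP1, another C-proteinase, rose by 0.36 ± 0.07 with ATF3 siRNA.

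Among 7 tested receptors, ITGA2, the integrin chain for collagen on keratinocytes, was at 421.7 CPM in control cells and fell to 264.9 with ATF3, 170.3 with APOE and 203 with CXCL14 siRNA (−0.67 ± 0.11, −1.31 ± 0.12 and −1.06 ± 0.11). The receptor kinase DDR1 rose by 0.34 ± 0.06, 0.55 ± 0.06 and 0.42 ± 0.06, and MRC2, an uptake receptor for collagen, by 0.97 ± 0.11, 0.94 ± 0.11 and 0.47 ± 0.11. The list had 2 rises and 2 falls with ATF3 siRNA, 2 rises and 3 falls with APOE siRNA, and 3 rises and 2 falls with CXCL14 siRNA. These 3 contrasts share the control libraries, and the shares of all genes higher and lower in them were 11.2% and 9.14%, 22.3% and 22.5%, and 27.4% and 28.4%, for this list and the next. Of 14 tested matrix proteins that bind collagen, 3 rose and 1 fell with ATF3 siRNA, 5 rose and 4 fell with APOE siRNA, and 4 rose and 4 fell with CXCL14 siRNA. SPARC, which binds fibrillar and type IV collagen, fell by 0.61 ± 0.08 with APOE siRNA and rose by 0.87 ± 0.08 with CXCL14 siRNA. TGFBI rose by 1.47 ± 0.07 with APOE siRNA and fell by 0.56 ± 0.07 with CXCL14 siRNA. THBS1 rose by 0.40 ± 0.08 with ATF3 siRNA and fell by 1.49 ± 0.08 with APOE siRNA.

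Of 15 tested genes for collagen breakdown, 6 rose and 1 fell with ATF3 siRNA, 6 rose and 5 fell with APOE siRNA, and 5 rose and 6 fell with CXCL14 siRNA. Of all genes 11.2% rose and 9.14% fell with ATF3 siRNA, 22.3% rose and 22.5% fell with APOE siRNA, and 27.4% rose and 28.4% fell with CXCL14 siRNA. MMP9, a gelatinase that cuts type IV collagen, was at 10.02 CPM in control cells, 37.6 with ATF3 siRNA (log2 1.91 ± 0.12, adjusted p = 4.36e-08), 4.71 with APOE siRNA (−1.09 ± 0.14, adjusted p = 1.35e-05) and 0.206 with CXCL14 siRNA (−5.58 ± 0.24, adjusted p = 2.98e-11). The level of MMP9 with CXCL14 siRNA lay below the filter's limit of 0.567 CPM and near the floor of 0.136 to 0.191 CPM. The size of that fall is therefore uncertain, and its call is a description only. TIMP2, an inhibitor of such proteases, rose by 0.81 ± 0.08, 0.65 ± 0.08 and 1.05 ± 0.08 with ATF3, APOE and CXCL14 siRNA. The list holds proteases and their inhibitors together, so its counts do not give a direction of breakdown. With ATF3 siRNA, TIMP3 rose by 0.75 ± 0.10 and the cathepsin CTSL by 0.37 ± 0.06, and CTSB, another cathepsin, rose by 0.48 ± 0.07 with APOE siRNA.

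**Figure D5:**
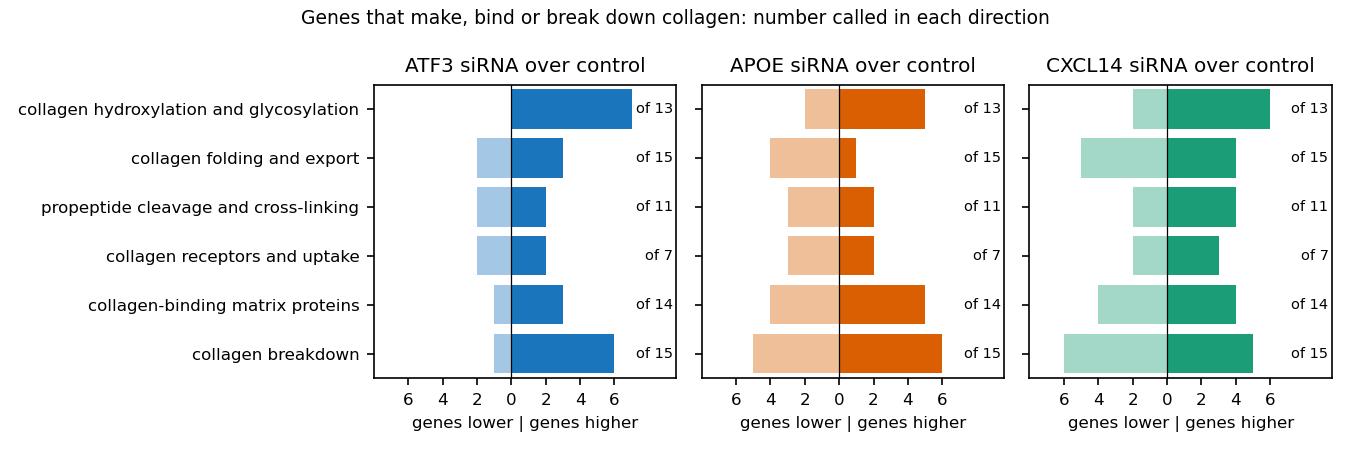
Number of tested genes called higher (full colour, to the right) and lower (pale, to the left) against control siRNA in 6 lists of genes that act on collagen, with the number tested at the right edge. The hydroxylation list has 7 rises and 0 falls with ATF3 siRNA (11.2% and 9.14% of all genes), and the breakdown list has 5 rises and 6 falls with CXCL14 siRNA.

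COL7A1 and COL17A1, the chains left out, give the scale of the changes in the anchoring complex. COL7A1 rose by 1.12 ± 0.09 with APOE siRNA (adjusted p = 5.66e-08) and fell by 0.82 ± 0.09 with CXCL14 siRNA (adjusted p = 8.03e-07), with 0.09 ± 0.09 (adjusted p = 0.493) for ATF3 siRNA. COL1A1 had the corresponding values 1.48, −0.92 and 0.30. COL17A1 fell by 0.26 ± 0.06, 0.58 ± 0.06 and 0.34 ± 0.06 with ATF3, APOE and CXCL14 siRNA. The left-out pair took 0.459% of all counts in control cells and the 42 genes 0.141%.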

How the data were processed

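Bulk mRNA was sequenced in 12 libraries, 3 for each of 4 siRNA groups. The authors deposited raw counts per gene and FPKM per gene and library. The submitters' processing notes give HISAT2 2.0.5 as well as featureCounts 1.5.0-p3 and the build hg38. The annotation and strand setting are not given in the sources used here, and all 58735 gene IDs matched GENCODE release 29. The deposited FPKM equal the count over gene length and a scaled library size, checked for every gene.

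Counts were filtered with filterByExpr, scaled by TMM and fitted in edgeR 4.0.16 (R 4.3.3, glmQLFit and glmQLFTest) with all 12 libraries and 1 term per group. P-values of the 6 comparisons were adjusted by Benjamini-Hochberg over 14920 genes, with 0.05 as the limit for a call. CPM are TMM-scaled; the SE is the log2 fold change over the root of F. Alternatives used DESeq2 1.42.0 and limma 3.58.1.

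Members and lists were chosen with earlier results of these data known. Values per library are given for tested members whose mean reached 5 CPM in a group or a call in any comparison, and up to 4 called genes of smallest adjusted p per list and control comparison could be named; the text gives a part of these. Protein sequences were not used here.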

Additional observations from a re-analysis of the deposited data

How the results depend on the processing

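Of 120 combinations of a collagen gene and a comparison, 72 were called. Of these 59 kept their call in every alternative that gave a value, 13 lost it in at least 1, and 0 changed sign. Of the 48 uncalled, 11 were called in some alternative and 15 changed sign. Low counts limit COL2A1, COL11A2, COL8A2, COL6A1, COL5A3 and COL22A1, which a stricter filter (a mean of 50 counts, and 1 CPM or more in 3 libraries) removed, leaving 84 combinations.

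The number of collagen genes higher with ATF3 siRNA was 1, 0 in a fit of only the 2 groups and 2 with the replicate number as a block. Leaving out a library gave 0 to 3 for this number, 15 to 24 for the genes acting on collagen that were higher with ATF3 siRNA (23 with all libraries) and 3 to 9 for those lower (8 with all). The replicate numbers were not treated as pairs, because the labels do not say that they mark a shared culture or day. Deviations from group means of same-numbered libraries correlated at −0.0208 to 0.234 (median 0.134). Those of different numbers correlated at −0.238 to 0.1 (median −0.0511). Deviations from a group's mean cancel out within the group. A lower median for different numbers thus follows from higher same-number values and is not a separate observation. The replicate block added 6 calls and removed 0 of the 120: COL1A1 with ATF3 siRNA (adjusted p = 0.0329), COL4A2 with APOE siRNA (0.0299), COL12A1 with CXCL14 siRNA (0.0144), COL18A1 (0.0463) and COL4A6 (0.025) in ATF3 against APOE siRNA, and COL4A6 in ATF3 against CXCL14 siRNA (0.0449). The summed collagen level of 114, 107.9, 127.5 and 118 FPKM (control, ATF3, APOE, CXCL14) was 217.5, 200.3, 232.8 and 225.7 with the longest coding transcript as length, an alternative chosen after seeing the data. With TMM-scaled CPM per kilobase it was 115.5, 109.9, 130.4 and 119.4.

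Of 80 called values of other genes, 12 lost their call in some alternative and 0 changed sign. All sign changes of collagen genes were in uncalled values. COL11A2 with APOE siRNA went to 0.02 with limma-voom. With library size alone COL12A1 and COL2A1 went to −0.07 in APOE against CXCL14 siRNA, and COL4A6 and COL9A2 to 0.06 with CXCL14 siRNA. With the stricter filter COL4A6 and COL9A2 went to 0.02, and COL4A6 to 0.00 with limma on log2(FPKM + 1) or log2(FPKM + 0.1). Leaving out a library gave these ranges against the control: COL11A2 with APOE siRNA −0.32 to 0.37, COL22A1 with APOE siRNA −0.03 to 0.19 and with ATF3 siRNA −0.19 to 0.02, COL27A1 with ATF3 siRNA −0.07 to 0.02, COL8A2 with ATF3 siRNA −0.12 to 0.44, COL9A3 with ATF3 siRNA −0.10 to 0.00, COL4A6 with CXCL14 siRNA −0.08 to 0.05, COL6A1 with CXCL14 siRNA −0.01 to 0.77 and COL9A2 with CXCL14 siRNA −0.06 to 0.03. For APOE against CXCL14 siRNA the ranges were −0.06 to 0.17 for COL12A1, −0.23 to 0.22 for COL2A1, −0.08 to 0.03 for COL4A5 and −0.14 to 0.01 for COL5A1. For ATF3 against APOE siRNA they were −0.43 to 0.02 for COL2A1 and −0.03 to 0.47 for COL5A3. The cause of these changes was not tested.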
